A study of Mus musculus with 72 samples.

Results

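Astrocytes are known in part by the genes they raise when they become reactive. Here 4 such genes and 2 general astrocyte genes were followed across the genotypes and sexes of a mouse amyloid model. They were chosen by name, as the rows of the deposited log2 table that carry these symbols, and all 6 were found among the 1266 named genes. The reactive genes were Gfap, the intermediate filament protein by which astrocytes are usually recognised, Serpina3n, a secreted inhibitor of serine proteases, Hspb1, a small heat shock protein, and Gbp2, an interferon-inducible guanylate-binding GTPase. The general astrocyte genes were Glul, the glutamine synthetase that converts glutamate taken up from synapses, and Sox9, a transcription factor that marks the nuclei of most mature astrocytes. The chosen 6 lie on mouse chromosomes 11 (Gfap and Sox9), 12 (Serpina3n), 5 (Hspb1), 3 (Gbp2) and 1 (Glul), and all are protein-coding.

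Astrocytes clear glutamate and potassium from around synapses and supply neurons with metabolites. Around amyloid plaques they become reactive: the filament protein GFAP and secreted factors such as the serpin rise, in exchange with the microglia that gather at the same plaques. Reactive astrocytes have been sorted into a set seen after inflammation, to which Gbp2 belongs, and a set seen after injury, with Gfap, Serpina3n and Hspb1 raised in both.

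Cortical RNA of 36 mice, all 7.5 months old, was hybridised to barcoded probes of 2 NanoString nCounter panels, and the bound barcodes were counted. All mice carried the 5xFAD transgenes, which express mutant human amyloid precursor protein and presenilin in neurons under the Thy1 promoter. Plaques were not measured in these data, and no mouse without 5xFAD was analysed here. The genotypes were 5xFAD alone (called WT for Plcg2 in the sample descriptions), M28L.5xFAD and P522R.5xFAD, where M28L and P522R are variants of phospholipase C-gamma-2, an enzyme that signals in microglia; whether 1 or both copies carried the variant is not given in the labels used here. Each genotype had 6 females and 6 males. The mice were separate animals by their numbers, except that 2 female M28L.5xFAD mice share the number 14; their Gfap values of 12.60 and 12.08 were the highest and the lowest of their group, and they were kept as separate mice.

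The deposited values convert to whole counts, to within 0.05 of a count. Median totals per mouse ran from 1104030.5 to 1802004.5 counts over the 6 groups on the larger panel (757 genes) and from 277909.5 to 630333.5 on the smaller panel (509 genes), with the lowest medians on both panels in the 5xFAD and M28L.5xFAD females. Hspb1 was on the smaller panel and the other 5 genes on the larger. Gbp2 was close to the limit of the assay, with 11 to 60 counts per mouse and a median of 19.5, whereas Serpina3n had 38 to 405, Hspb1 22 to 251, Sox9 113 to 506, Gfap 2657 to 10654 and Glul 11978 to 25633. Cortical cell types were represented by 8 of 20 general astrocyte markers that were measured, with Glul and Sox9 among these 8. The dimmest of them was Sox9 at a mean log2 value of 8.31. Neurons were represented by 9 markers with a mean of 10 or more. In bulk tissue, fewer cells of a type and less RNA per cell cannot be told apart.

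Promoter sequences of the reactive genes are shown because Gfap and Serpina3n moved together across mice while Hspb1 and Gbp2 did not follow them (values below). RefSeq promoter windows (build GRCm38.p6, 250 bases before to 50 after the transcript start) were matched for 5 of the 6 genes, all but Sox9. The windows were searched on both strands for a STAT motif (TTCNNNGAA), a heat shock element (GAANNTTC) and an interferon response element. Each is printed 5′ to 3′ on the gene's strand, from 250 bases before to 30 after the start, with matches in capitals.
Gfap (chr11:102897171-102897450, minus strand): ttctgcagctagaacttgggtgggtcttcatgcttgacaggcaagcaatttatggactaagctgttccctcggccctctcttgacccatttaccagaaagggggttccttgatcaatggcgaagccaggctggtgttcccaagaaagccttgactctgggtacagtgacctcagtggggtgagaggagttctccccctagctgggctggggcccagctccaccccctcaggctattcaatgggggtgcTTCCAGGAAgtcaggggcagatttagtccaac
Serpina3n (chr12:104406458-104406737, plus strand): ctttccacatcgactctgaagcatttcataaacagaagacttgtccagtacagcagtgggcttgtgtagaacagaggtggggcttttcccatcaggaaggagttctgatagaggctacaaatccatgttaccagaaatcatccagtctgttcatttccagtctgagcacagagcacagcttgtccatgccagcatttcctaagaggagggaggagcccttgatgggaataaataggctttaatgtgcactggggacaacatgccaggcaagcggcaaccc
Hspb1 (chr5:135887669-135887948, plus strand): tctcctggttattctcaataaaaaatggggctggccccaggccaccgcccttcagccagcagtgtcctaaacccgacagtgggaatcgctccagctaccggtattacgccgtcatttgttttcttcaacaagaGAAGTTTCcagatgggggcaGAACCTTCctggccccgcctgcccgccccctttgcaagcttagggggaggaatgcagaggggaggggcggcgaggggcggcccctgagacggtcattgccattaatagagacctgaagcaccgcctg
Gbp2 (chr3:142620413-142620692, plus strand): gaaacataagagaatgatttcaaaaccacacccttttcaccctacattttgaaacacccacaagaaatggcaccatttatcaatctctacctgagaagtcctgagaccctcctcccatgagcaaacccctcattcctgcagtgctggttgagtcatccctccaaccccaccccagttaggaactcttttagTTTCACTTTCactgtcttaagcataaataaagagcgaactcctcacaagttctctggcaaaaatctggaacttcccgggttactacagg

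The STAT motif occurred in Gfap alone of the 5 windows, at TTCCAGGAA, which begins 2 bases before the start and runs past it. The motif was found in 8.30% of 32851 mouse promoter windows of the same length. The heat shock element occurred in Hspb1 alone, at GAAGTTTC and GAACCTTC, 117 and 97 bases before the start, against 7.86% of all windows. The interferon response element occurred in Gbp2, as TTTCACTTTC on the opposite strand 59 bases before the start, and in a pyrimidine-rich stretch of Glul, against 3.44% of all windows. Serpina3n held none of the 3 within its window. The NF-kB motif, which overlaps the STAT match in Gfap and the second heat shock match in Hspb1, was in 4 of the 5 windows but also in 50.8% of all windows, and is not capitalised. These matches are letters in a window and were not tested as binding sites.

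**Figure D1:**
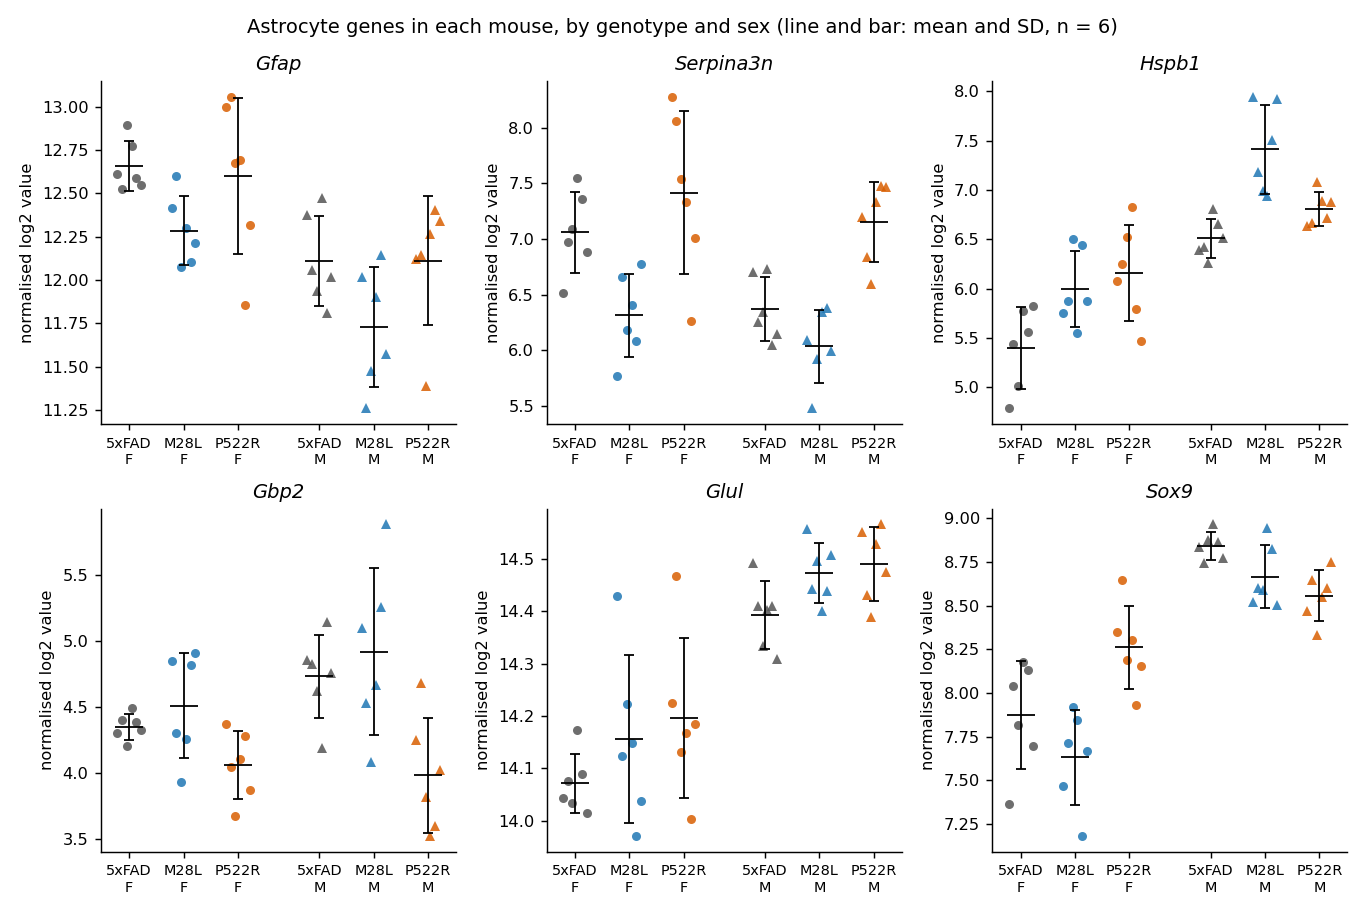
Normalised log2 value of each of the 6 genes (y axes, different ranges) in every mouse, by genotype and sex (x axis; circles females, triangles males; horizontal line and bar, mean and SD of 6 mice). Gfap and Serpina3n were low in M28L.5xFAD mice of both sexes, Hspb1 was lowest in 5xFAD females and highest in M28L.5xFAD males, and Sox9 was lower in females of every genotype.

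Gfap was highest in 5xFAD and P522R.5xFAD females and lowest in M28L.5xFAD males. In females its log2 value ran from 12.53 to 12.89 in 5xFAD mice (median 12.60), from 12.08 to 12.60 in M28L.5xFAD mice (median 12.26) and from 11.86 to 13.06 in P522R.5xFAD mice (median 12.68). In males it ran from 11.81 to 12.47 in 5xFAD mice (median 12.04), from 11.26 to 12.15 in M28L.5xFAD mice (median 11.74) and from 11.39 to 12.41 in P522R.5xFAD mice (median 12.20). The groups overlapped in both sexes, M28L.5xFAD mice had the lowest median in each, and the lowest single female was P522R.5xFAD female 60. No 2 neighbours in the order of the 6 group means differed at a limma adjusted p below 0.05 (lowest 0.0968). The largest step, from M28L.5xFAD males up to 5xFAD males, was 0.38 (adjusted p = 0.331, where 2.05% of all genes were below 0.05).

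Serpina3n kept a different order, with the P522R.5xFAD mice of both sexes on top. In females it ran from 6.52 to 7.55 in 5xFAD (median 7.03), from 5.77 to 6.77 in M28L.5xFAD (median 6.3) and from 6.27 to 8.28 in P522R.5xFAD mice (median 7.44). In males it ran from 6.05 to 6.73 in 5xFAD (median 6.3), from 5.48 to 6.38 in M28L.5xFAD (median 6.05) and from 6.59 to 7.48 in P522R.5xFAD mice (median 7.27). Of the neighbours in the order of group means, 5xFAD females and 5xFAD males were apart (log2 difference 0.69, adjusted p = 0.00832), and the other 4 neighbouring pairs were not (0.281 to 0.829). Serpina3n had the widest within-group SD of the 6 genes, 0.434 on the log2 scale, against a median of 0.172 over all genes.

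Hspb1 was highest in M28L.5xFAD males and lowest in 5xFAD females. In females it ran from 4.78 to 5.82 in 5xFAD (median 5.5), from 5.55 to 6.50 in M28L.5xFAD (median 5.88) and from 5.47 to 6.82 in P522R.5xFAD mice (median 6.17). In males it ran from 6.26 to 6.81 in 5xFAD (median 6.47), from 6.93 to 7.94 in M28L.5xFAD (median 7.34) and from 6.63 to 7.08 in P522R.5xFAD mice (median 6.79). Every M28L.5xFAD male lay above every 5xFAD male, and every 5xFAD male lay above every 5xFAD female. The step from P522R.5xFAD males up to M28L.5xFAD males was 0.60 (limma adjusted p = 0.0122, where 50% of all genes were below 0.05). That from 5xFAD females up to M28L.5xFAD females was also 0.60 (adjusted p = 0.0861, where 3.87% of all genes were).

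Gbp2 differed little between 5xFAD and M28L.5xFAD mice and was low in P522R.5xFAD mice. In females it ran from 4.20 to 4.49 in 5xFAD (median 4.35), from 3.94 to 4.91 in M28L.5xFAD (median 4.56) and from 3.67 to 4.37 in P522R.5xFAD mice (median 4.08). In males it ran from 4.19 to 5.14 in 5xFAD (median 4.79), from 4.09 to 5.88 in M28L.5xFAD (median 4.88) and from 3.52 to 4.68 in P522R.5xFAD mice (median 3.92). No 2 neighbours in its order of group means were apart (adjusted p from 0.264 to 0.85).

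Glul and Sox9, the general astrocyte genes, were ordered by sex before genotype. Glul ran from 13.97 to 14.47 over all 18 females and from 14.31 to 14.57 over all 18 males, with the smallest within-group SD of the 6 genes, 0.104. Its group medians were 14.06, 14.14 and 14.18 in 5xFAD, M28L.5xFAD and P522R.5xFAD females and 14.41, 14.47 and 14.50 in the males. The only step in its order of means with a limma adjusted p below 0.05 was that from P522R.5xFAD females up to 5xFAD males (0.20, adjusted p = 0.00564). Sox9 in females ran from 7.36 to 8.18 in 5xFAD (median 7.93), from 7.18 to 7.92 in M28L.5xFAD (median 7.69) and from 7.93 to 8.65 in P522R.5xFAD mice (median 8.25). In males it ran from 8.75 to 8.97 in 5xFAD (median 8.85), from 8.51 to 8.95 in M28L.5xFAD (median 8.60) and from 8.33 to 8.75 in P522R.5xFAD mice (median 8.57). Males and females did not overlap in Sox9 within 5xFAD or within M28L.5xFAD mice, and they did within P522R.5xFAD mice, whose males were on average the lowest and whose females the highest of their sex.

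**Figure D2:**
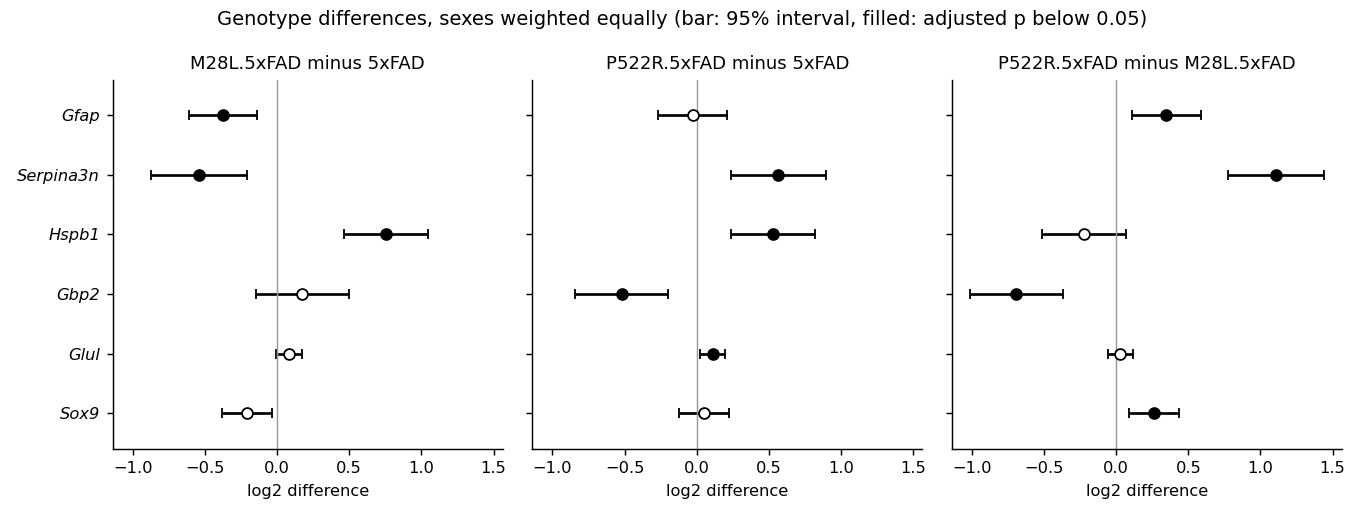
Log2 difference (x axes) of each gene (y axis) between genotypes, with females and males weighted equally; bars are 95% intervals from limma and filled points have an adjusted p below 0.05. Serpina3n fell in M28L.5xFAD and rose in P522R.5xFAD mice, Hspb1 rose in both and Gfap fell in M28L.5xFAD mice; both left panels share the 5xFAD mice.

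The M28L variant was first compared with 5xFAD alone. Gfap and Serpina3n fell and Hspb1 rose, so that the reactive genes did not move as a block. Gfap was 1.30-fold lower (log2 difference -0.38 ± 0.12 (SE), adjusted p = 0.033), with 11 of 12 M28L.5xFAD mice below the 5xFAD mean of their sex. Serpina3n was 1.46-fold lower (-0.54 ± 0.16, adjusted p = 0.0282), also in 11 of 12 mice. Hspb1 was 1.69-fold higher (0.75 ± 0.14, adjusted p = 0.000447), in 12 of 12 mice. These 3 of 6 genes were called at an adjusted p below 0.05 (limma, 12 against 12 mice), where 10.3% of all genes were, 4.66% higher and 5.61% lower, around a median difference of 0.00. With each mouse centred on 2 housekeeping genes the split of calls was 276 higher and 30 lower around a median of 0.167; Gusb, one of the 2, was itself lower in M28L.5xFAD mice as deposited (-0.47, adjusted p = 0.000554). Gbp2 (0.17, 95% interval -0.15 to 0.50), Glul (0.08, -0.00 to 0.17) and Sox9 (-0.21, -0.38 to -0.04) did not pass, with adjusted p of 0.556, 0.254 and 0.12; without 5xFAD female 1180, Sox9 passed (-0.26, adjusted p = 0.0309). Glul passed under 3 of 4 other scalings, namely centring within each panel (0.14, adjusted p = 0.0219), quantile normalization (0.10, 0.0182) and housekeeping centring (0.25, 0.0152).

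The calls on Gfap and Serpina3n lay near the threshold. Gfap missed it (adjusted p from 0.0519 to 0.0685) when any one of 9 mice was left out: 5xFAD females 1190 and 1248, 5xFAD males 1177 and 1268, M28L.5xFAD females 20 and 14 (index 8), and M28L.5xFAD males 9, 11 and 15. Serpina3n missed it (0.0509 to 0.0594) without 5xFAD females 1248 or 1249, 5xFAD males 1177 or 1268, M28L.5xFAD female 12 or M28L.5xFAD male 11. With 1 mouse left out, the differences ran from -0.42 to -0.33 for Gfap and from -0.60 to -0.49 for Serpina3n. Housekeeping centring brought Gfap to -0.21 (adjusted p = 0.0736), and all 3 calls, Hspb1 included, were lost in a model that ignores sex (adjusted p 0.334, 0.132 and 0.132).

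Taken within a sex, with 6 mice a group, the differences kept their signs but mostly missed the threshold. In females, 0 of 6 genes were called, where 3.87% of all genes were: Serpina3n differed by -0.75 ± 0.23 (adjusted p = 0.0612), Hspb1 by 0.60 ± 0.20 (0.0861) and Gfap by -0.37 ± 0.17 (0.209). Serpina3n passed there without 5xFAD female 1180 (-0.86, adjusted p = 0.0358) or M28L.5xFAD female 28 (-0.84, 0.0429), and Hspb1 without M28L.5xFAD female 16 (0.69, 0.0491). In males, Hspb1 alone was called, 1.87-fold higher (0.90 ± 0.20, adjusted p = 0.00772), where 2.05% of all genes were; that call was lost with the 3 male M28L.5xFAD mice of index 1 to 3 only (adjusted p = 0.21). Gfap differed by -0.38 ± 0.17 (0.331) and Serpina3n by -0.34 ± 0.23 (0.661) in males. The test of a difference between the sexes called none of the 6 genes, nor any of the 1266 (34 at an unadjusted p below 0.05, limma).

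Markers of plaque-associated microglia moved with Gfap and Serpina3n in this comparison. Of 12 such markers, 10 were lower in M28L.5xFAD mice and 2 did not pass (median difference -0.73), led by the chemokine Ccl3 (-1.26 ± 0.13, adjusted p = 1.31e-08), the inhibitory receptor Lilrb4a (-1.05 ± 0.13, 1.01e-06), the glycoprotein Gpnmb (-1.35 ± 0.19, 4.91e-06) and lipoprotein lipase, Lpl (-0.57 ± 0.08, 6.36e-06). Their summed linear level was 4646 to 6621 in M28L.5xFAD females against 7411 to 9959 in 5xFAD females, and 3463 to 5825 against 5242 to 7052 in males. None of the 12 was at 0, the dimmest being Itgax at a mean log2 of 5.81. The part of these markers in the fall of Gfap and Serpina3n was not tested. General astrocyte markers gave 0 of 8 called, with a median of -0.04 and sums of 32940 to 47130 against 35340 to 40560 in females and 53490 to 55860 against 51880 to 56770 in males. These 8 include the members Glul and Sox9. Glul made up a large part of the sums, with a geometric mean of 17213.8 in 5xFAD females, where the median sum was 37690. The sums are thus not independent of the members.

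Other astrocyte gene sets in M28L.5xFAD mice were counted beside the share of all genes called, 4.66% higher and 5.61% lower. In the pan-reactive set of 8 measured genes, Gfap, Serpina3n and Hspb1 were the calls and 5 did not pass. Of the 11 measured genes of the inflammation set, to which Gbp2 belongs, 4 fell, namely H2.T23 (-0.30), H2.D1 (-0.36) and the immunoproteasome subunit Psmb8 (-0.40), all of antigen presentation, and Ggta1 (-0.32), while 7 did not pass. Of the 12 measured genes of the injury set only the lipopolysaccharide co-receptor Cd14 fell (-0.64, adjusted p = 0.000632). Among 20 measured signals known to activate astrocytes, the TGF-beta receptor Tgfbr2 fell (-0.41, adjusted p = 0.000916) and 19 did not pass, and glutamate handling genes gave 0 of 9. Of the 10 measured genes of the disease-associated astrocyte set, Serpina3n, Gfap and Ggta1 fell and 7 did not pass. Of 10 measured interferon response genes, the peptide transporter Tap1 (-0.44) and Psmb8 fell.

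The P522R variant was compared with the same 5xFAD mice, so the 2 comparisons share their controls. Serpina3n and Hspb1 rose, Gbp2 fell, and Gfap did not pass the test. Serpina3n was 1.48-fold higher (0.57 ± 0.16, adjusted p = 0.00292), in 10 of 12 mice. Hspb1 was 1.44-fold higher (0.53 ± 0.14, adjusted p = 0.0016), in 12 of 12 mice. Gbp2 was 1.43-fold lower (-0.52 ± 0.16, adjusted p = 0.00466), in 11 of 12 mice, at the low counts given above. Its difference was -0.998 with quantile normalization and -0.25 with a pseudocount of 20, past the threshold in both (adjusted p = 1e-05 and 0.00905). As whole counts, Gbp2 in females was 13 to 27 in P522R.5xFAD mice (median 21) against 14 to 19 in 5xFAD mice (median 16.5). In males it was 11 to 26 (median 14) against 18 to 33 (median 27). The counts were thus lower in males but not in females. Median totals on the larger panel, which holds Gbp2, were 1802004.5 in P522R.5xFAD females against 1137287 in 5xFAD females. In males they were 1695631.5 against 1630026. The female counts were therefore not taken at like depth, and the part of the scaling was not tested. The call on Hspb1 was lost in a model without sex (adjusted p = 0.0912). Glul was 1.08-fold higher (0.11 ± 0.04, adjusted p = 0.0236), a call that was lost under each of 4 other scalings (0.00 to 0.08, adjusted p from 0.126 to 0.924), without P522R.5xFAD female 24 (0.08, adjusted p = 0.0617) and in a model without sex. That made 4 of 6 genes, where 65.4% of all genes were called in this comparison (40.5% higher, 24.9% lower), so the count of members is not a result about them. Gfap (-0.03, 95% interval -0.27 to 0.21) and Sox9 (0.05, -0.12 to 0.23) did not pass, and the sign of Gfap turned without P522R.5xFAD female 60 (0.05), P522R.5xFAD male 27 (0.04) or 5xFAD male 1268 (0.01).

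Among the 6 genes, Sox9 carried the clearest dependence of the P522R difference on sex. It rose in P522R.5xFAD females, 1.31-fold (0.39 ± 0.12, adjusted p = 0.00599), with 6 of 6 above the 5xFAD female mean. It fell in P522R.5xFAD males, 1.22-fold (-0.29 ± 0.12, adjusted p = 0.0465), with 6 of 6 below the 5xFAD male mean. The difference between the 2 effects was 0.68 ± 0.17 (adjusted p = 0.00437). It was the 1 call among the 6 genes, where 20.9% of all genes were called, so the count of members is not a result about them. The interaction passed under all 11 alternatives (adjusted p from 0.000529 to 0.0169) and the rise in females did too (0.00288 to 0.0261), whereas the fall in males was lost under 4 of 11 alternatives and when any one of 9 of the 12 male mice was left out, namely 5xFAD males 1177, 1182, 1268, 1269 and 1270 and P522R.5xFAD males 21, 27, 29 and 30 (adjusted p from 0.0525 to 0.111).

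Within females, 2 of 6 genes were called for P522R, where 60.2% of all genes were: Sox9, above, and Hspb1, 1.69-fold higher (0.76 ± 0.20, adjusted p = 0.00178). Serpina3n differed by 0.35 ± 0.23 there (adjusted p = 0.186), and leaving out P522R.5xFAD female 60, which held the lowest Serpina3n and Gfap of its group, brought it to 0.58 (adjusted p = 0.0167). Within males, 3 of 6 were called, where 50.6% of all genes were: Serpina3n was 1.72-fold higher (0.78 ± 0.23, adjusted p = 0.00525), Gbp2 was 1.68-fold lower (-0.75 ± 0.23, 0.00566), and Sox9 fell. Hspb1 in males differed by 0.30 ± 0.20 (0.221) and Gbp2 in females by -0.29 ± 0.23 (0.264). The first passed with centring within each panel (0.47, adjusted p = 0.0299) and the second with quantile normalization (-0.77, 0.0104), which brought Gbp2 in males to -1.22. The sexes were not shown to differ in these 3 genes (interaction adjusted p = 0.38 for Serpina3n, 0.27 for Hspb1 and 0.326 for Gbp2).

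Totals and markers of other cell types also differed between P522R.5xFAD and 5xFAD mice. Median totals on the larger panel were 1802004.5 counts in P522R.5xFAD females against 1137287 in 5xFAD females, and 1695631.5 against 1630026 in males. On the smaller panel, which holds Hspb1, they were 592158.5 against 319585.5 in females and 575259.5 against 593007.5 in males, with P522R.5xFAD male 30 apart at 259284. Of 9 measured neuron markers, 7 were higher and 1 lower in P522R.5xFAD mice (median 0.23), with sums of 65550 to 76680 against 50360 to 59820 in females and 81140 to 93230 against 76900 to 79830 in males, and all 6 precursor markers of oligodendrocytes were higher (median 0.45). Plaque-associated microglia markers were 4 higher and 4 lower of 12. Of all genes, 40.5% were called higher and 24.9% lower in this comparison, around a median of 0.08. The part of depth and of these cell types in the P522R values was not tested.

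Among astrocyte gene sets, the general markers rose in 6 and fell in 1 of 8 in P522R.5xFAD mice (median 0.18, against 0.08 over all genes, of which 40.5% were called higher and 24.9% lower), led by the potassium channel Kcnj10 (0.43 ± 0.06, adjusted p = 5.12e-08) and the glutamate transporter Slc1a3 (0.37 ± 0.06, 8.97e-07), with the calcium-binding protein S100b lower (-0.46 ± 0.08, 7.07e-06). Of these 8 general markers, Glul was among the 6 that rose and Sox9 did not pass. Glutamate handling genes rose in 6 and fell in 1 of 9. The pan-reactive set gave 3 higher, the chemokine Cxcl10 (0.67 ± 0.17, adjusted p = 0.001) beside Hspb1 and Serpina3n, and 2 lower, with the filament gene Vim at -0.22 ± 0.07 (0.00978). The inflammation set gave 1 higher, Amigo2 (0.38), and 3 lower, Psmb8 (-0.38), Gbp2 and H2.T23 (-0.19), of 11, and the injury set 6 higher and 1 lower of 12. The disease-associated set gave 3 higher, among them Serpina3n and the actin-severing protein Gsn (0.36), and 3 lower, among them the lipid carrier Apoe (-0.38) and the tetraspanin Cd9 (-0.44), of 10. Of 20 activating signals, 6 rose and 5 fell, among them the receptor Egfr (0.62) and the transcription factor Stat3 (0.34) higher and the complement gene C1qb (-0.77) and Tgfbr1 (-0.51) lower. Of 10 interferon response genes 2 rose and 3 fell, so that Gbp2 was not accompanied by the whole set, and both measured chaperone genes rose, Hsp90ab1 by 0.24 beside Hspb1.

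Set directly against each other, the 2 variants were furthest apart in Serpina3n among the 6 genes as deposited; with quantile normalization Gbp2 was further apart (-1.12 against 1.09 for Serpina3n). Serpina3n was 2.16-fold higher in P522R.5xFAD than in M28L.5xFAD mice (1.1 ± 0.16, adjusted p = 2.78e-07), in 11 of 12 mice, under all 15 alternatives (highest adjusted p 5.86e-05). Gbp2 was 1.62-fold lower (-0.69 ± 0.16, adjusted p = 0.00026), in 12 of 12 mice, and -0.37 with a pseudocount of 20 (0.000291). Its whole counts were lower in males (median 14 against 30.5 in M28L.5xFAD mice) but not in females (median 21 against 18). Depth differed in females, with larger-panel median totals of 1802004.5 in P522R.5xFAD against 1104030.5 in M28L.5xFAD mice. In males these totals were 1695631.5 against 1665496.5. Gfap was 1.27-fold higher (0.35 ± 0.12, adjusted p = 0.00915) and Sox9 1.20-fold higher (0.26 ± 0.09, 0.00722), but neither passed when each mouse was centred on 2 housekeeping genes (0.15, adjusted p = 0.163, and 0.06, 0.621), where Gusb itself differed by 0.24 (0.0229) as deposited. Neither passed in a model without sex (0.061 and 0.242) or with the M28L.5xFAD mice of index 7 to 9 only (0.0577 and 0.0782), and Sox9 also missed the threshold with centring within each panel (0.15, 0.0832). Hspb1 (-0.22, 95% interval -0.51 to 0.07) and Glul (0.03, -0.06 to 0.12) did not pass, and the sign of Glul turned under each of 4 other scalings. Hspb1 passed with housekeeping centring (-0.43, adjusted p = 0.00576) and was 0.01 with centring within each panel (0.962). These 4 of 6 called genes stand against 67.6% of all genes (41.5% higher, 26.1% lower, or 525 and 331 genes); with housekeeping centring 183 genes were higher and 483 lower.

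**Figure D3:**
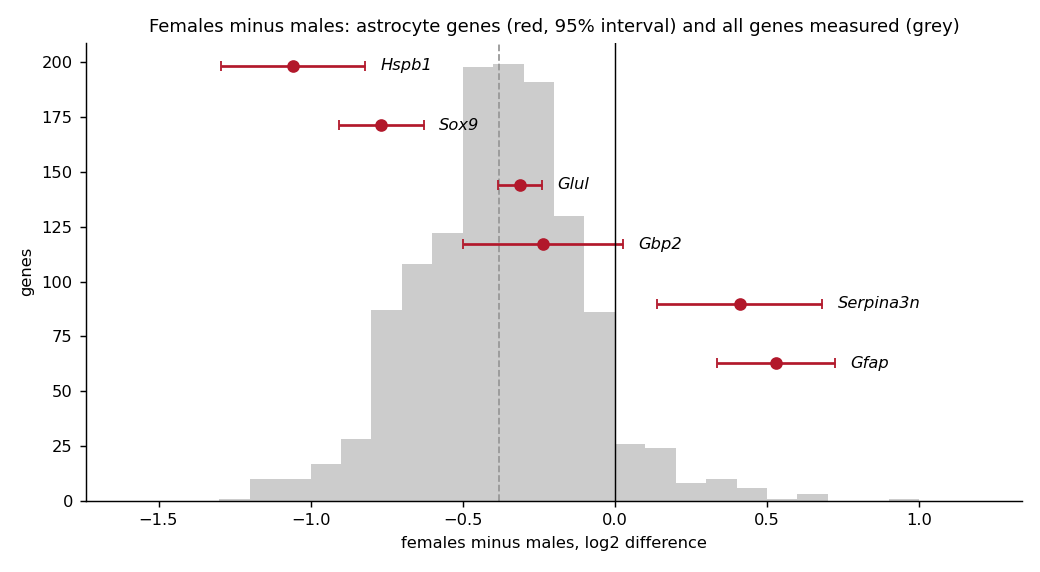
Females minus males, mean of the 3 genotypes, as log2 difference (x axis) for the 6 genes (red points, bars 95% intervals; their height has no meaning) over the histogram of all 1266 genes (grey, y axis in genes; dashed line, median of -0.38). Gfap and Serpina3n lie to the right of 0, where few genes do, and Hspb1 and Sox9 to the left of most genes.

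Females and males differed in nearly every gene, and Gfap and Serpina3n were among the few that were higher in females. Of all genes 86.4% were called, 2.69% higher and 83.7% lower in females, around a median of -0.38. Gfap was 1.44-fold higher in females (0.53 ± 0.10, adjusted p = 4.6e-06) and Serpina3n 1.33-fold higher (0.41 ± 0.13, 0.00511). Hspb1 was 2.08-fold lower (-1.06 ± 0.12, 2.47e-10), Sox9 1.70-fold lower (-0.77 ± 0.07, 1.94e-12) and Glul 1.24-fold lower (-0.31 ± 0.04, 3.82e-10), while Gbp2 differed by -0.24 ± 0.13 (0.0858). Of the 6 genes, 2 were thus called higher and 3 lower.

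With each mouse centred on its median gene, the median difference of all genes moved to -0.05 and the calls to 307 higher and 423 lower. Gfap was then 0.86 and Serpina3n 0.74 higher in females, Hspb1 0.73 and Sox9 0.44 lower on the log2 scale, all 4 still past the threshold, as they were under each of the 4 scalings. Glul did not pass after such centring (0.02, adjusted p = 0.687) and Gbp2 turned to 0.09 (0.563); as deposited, Gbp2 passed without M28L.5xFAD male 15 (-0.29, adjusted p = 0.0281) or 5xFAD male 1268 (-0.27, 0.0487). Serpina3n missed the threshold when only the M28L.5xFAD mice of index 7 to 9 were used (0.31, adjusted p = 0.0611). Totals were lower in females of 5xFAD and M28L.5xFAD (larger panel, medians of 1137287 and 1104030.5 counts against 1630026 and 1665496.5). On the smaller panel, which holds Hspb1, these medians were 319585.5 and 277909.5 in females against 593007.5 and 630333.5 in males. Centring within each panel brought Hspb1 to -0.58 (limma adjusted p = 2.43e-05). The part of depth was not tested. The labels name no run, so sex and an unrecorded run cannot be told apart.

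Plaque-associated microglia markers again moved with Gfap and Serpina3n: 10 of 12 were higher in females and 2 did not pass (median 0.38, against -0.38 for all genes), with the pattern receptor Clec7a at 0.99 ± 0.13 (adjusted p = 1.72e-08) and the adaptor Tyrobp at 0.49 ± 0.10 (1.31e-05). Summed levels were 7411 to 9959 in females and 5242 to 7052 in males of 5xFAD, without overlap. They overlapped in M28L.5xFAD mice (4646 to 6621 and 3463 to 5825) and in P522R.5xFAD mice (4817 to 12000 and 3738 to 7820). General astrocyte markers were lower in females in 6 of 8, among them the glutamate transporter Slc1a2 (-0.68 ± 0.05) and the folate enzyme Aldh1l1 (-0.57 ± 0.06), close to the shift of all genes (median -0.41). Their sums did not overlap between the sexes in 5xFAD (35340 to 40560 in females, 51880 to 56770 in males) or M28L.5xFAD mice (32940 to 47130, 53490 to 55860), and did in P522R.5xFAD mice (37270 to 53790, 52260 to 61070). Glul and Sox9 are among the 6 lower markers and Glul is a large part of the sums, so these values partly repeat the members. The part of these cell types in the sex differences was not tested.

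**Figure D4:**
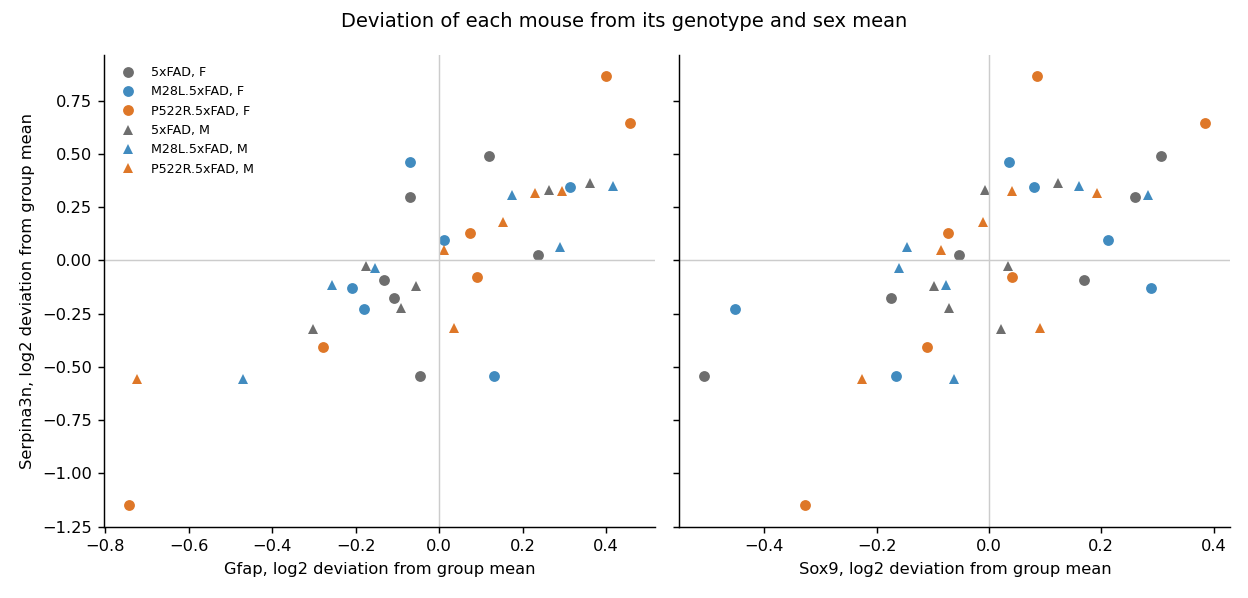
Deviation of Serpina3n (y axis, log2) against that of Gfap (left) and of Sox9 (right, x axes, log2) for each of 36 mice from the mean of its genotype and sex (circles females, triangles males). Serpina3n followed Gfap (r = 0.794) and Sox9 (r = 0.661), with P522R.5xFAD female 60 the lowest in Serpina3n.

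Mice of the same genotype and sex also varied in these genes, and part of this variation was shared. Over the 36 mice, after each group's mean was removed, Gfap and Serpina3n had a Pearson r of 0.794 and a Spearman rho of 0.773 (permutation within groups, both p = 1e-05, the smallest that 100000 permutations can give, adjusted p = 0.00015 over 15 pairs). Serpina3n and Sox9 had r = 0.661 and rho = 0.653 (adjusted permutation p = 0.000375 and 0.000525). The first pair was positive in all 6 groups, with r from 0.199 to 0.979, and so was the second, from 0.43 to 0.916. Without the 2 mice farthest from the median of the first gene, the first pair had r = 0.716 and the second r = 0.658. Gfap also followed Glul (r = 0.487, rho = 0.358) and Sox9 (r = 0.461, rho = 0.442) at adjusted permutation p of 0.0229 and 0.0178 for r and of 0.182 and 0.0464 for rho, so that Gfap and Glul did not pass by rank. Both pairs were positive in all 6 groups. Without P522R.5xFAD female 60 and P522R.5xFAD male 27 r fell to 0.351 and 0.34 and neither passed (adjusted permutation p = 0.147 for both), nor did either with all 36 mice after median centring (r = 0.367 and 0.392, adjusted permutation p = 0.205 and 0.0937). No pair with Hspb1 or Gbp2 passed (r from -0.167 to 0.205).

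The genes that varied most like each member over the 36 mice were taken from about 1090 genes with a mean log2 of at least 5, as a description with no test; the mice share their libraries and depth. Nearest to Gfap were the lysosomal protease gene Ctsd (r = 0.915), the complement C4 probe C4a.b (0.901) and the microglial receptor Fcrls (0.891). Among the nearest to Serpina3n were C4a.b (0.836) and the microglial receptor Trem2 (0.83). Nearest to Glul were the glutamate transporters Slc1a2 (0.859) and Slc1a3 (0.819) and the neuropeptide receptor Adcyap1r1 (0.778). Nearest to Sox9 were Grn (0.805), the fractalkine receptor Cx3cr1 (0.802) and Sox10 (0.772), a transcription factor of the oligodendrocyte lineage. Hspb1 had no such close neighbour, its nearest being Brms1l (0.655), Il34 (0.611) and Ahcyl1 (0.6), and those of Gbp2 were weaker still, Ptpn1 (0.418), Iigp1 (0.411) and Casp1 (0.411). For comparison, 1 in 100 genes exceeded r = 0.822 with Gfap, 0.794 with Serpina3n, 0.725 with Glul and 0.672 with Sox9, against 0.55 with Hspb1 and 0.347 with Gbp2.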

How the data were processed

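Each of 36 mice had 1 column in the table the authors deposited, holding normalised log2 values of both panels joined. Cortical total RNA came from a spin-column kit and the assay followed the supplier's procedure, per the labels' protocols. The normalization steps are not given in the labels or the table itself. Of 1517 rows, 251 have no gene name and were left out. Groups came from the labels. limma 3.58.1 (R 4.3.3) fitted 1 mean per genotype and sex over all 36 mice and 1266 genes, with eBayes and trend, two-sided, Benjamini-Hochberg adjusted over all genes of a comparison, calls at an adjusted p below 0.05; genotype comparisons weight the sexes equally. The fit was tested on simulated data. Correlations used numpy 2.4.6 with permutation within groups. Tried besides were 15 alternatives (scaling, filter, pseudocount of 20, variance model, design, subsets of mice) and leaving out each mouse. From each gene list the calls with the smallest adjusted p were named, at most 4. The members and lists were chosen with earlier results of these data known. A result among the genes most like Serpina3n is not reported here.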

Additional observations from a re-analysis of the deposited data

Results flagged for a closer look

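Gfap in P522R.5xFAD males had 1 mouse far from the others: male 27 had a log2 value of 11.39, the next lowest 12.12, a gap of 0.723 of the group's range above the 95% critical value of Dixon's test for 6 mice. It was the 1 such case among 36 gene and group combinations, where chance gives about 1 in 20. The Sox9 response to P522R differed between females and males, by 0.68 on the log2 scale in the interaction test, where 20.9% of all genes were called. Sox9 rose in females and fell in males. The call in males was lost under 4 of 11 alternatives and when any one of 9 of the 12 male mice was left out.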

How the results depend on the processing

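Depth limits Gbp2 most, at a median of 19.5 counts. Of the genotype differences, Serpina3n and Gbp2 in P522R.5xFAD against either other genotype kept their calls under every alternative run, though Gbp2 ranged from -0.25 to -0.998 against 5xFAD and from -0.37 to -1.12 against M28L.5xFAD. The cause of the changes below was not tested, also where an alternative uses fewer mice.

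M28L.5xFAD against 5xFAD gave 130 called genes and 3 members; it gave 306 genes (276 higher) with housekeeping centring, 30 genes and 0 members without a sex term, 77 genes and 1 member with M28L.5xFAD mice of index 1 to 3, 1 member with index 7 to 9, and 1 to 4 members when 1 mouse was left out. In females, 49 genes and 0 members became 270 (252 higher) and 3 with housekeeping centring, 19 genes with array weights, 91 with index 1 to 3, 21 with index 7 to 9, and 29 to 56 genes and 0 to 1 member when 1 mouse was left out (29 without 5xFAD female 1248, 31 without 1249); 1 member was called with median centring, quantile normalization, the replicate block or only the genotypes compared. In males, 26 genes and 1 member became 127 and 2 with array weights, 4 and 0 with index 1 to 3, 17 genes with the replicate block, 42 with only the genotypes compared, and 15 to 28 when 1 mouse was left out (15 without M28L.5xFAD male 9, 17 without male 10).

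P522R.5xFAD against 5xFAD gave 2 members without a sex term. In females, array weights called 4 members, and leaving out 1 mouse 2 to 4 (4 without female 60); in males, housekeeping centring called 419 genes (156 higher, 263 lower). The interaction gave 56 genes with housekeeping centring, 397 with array weights and 2 members with the replicate block. P522R.5xFAD against M28L.5xFAD gave 2 members without a sex term and 2 with index 7 to 9. Females against males gave 627 genes with centring within each panel, 693 with quantile normalization and 601 with housekeeping centring.

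Values that turned sign, none of them called in both fits, were these. Gfap in P522R.5xFAD against 5xFAD was 0.0198 with array weights and ran from -0.0745 to 0.0455 when 1 mouse was left out. Glul in P522R.5xFAD against M28L.5xFAD was -0.0033 with median centring, -0.0791 with centring within each panel, -0.10 with quantile normalization (adjusted p = 0.0037), -0.17 with housekeeping centring and -0.0347 with index 7 to 9. Hspb1 there was 0.0076 with centring within each panel. Females minus males, Gbp2 was 0.0909 with median centring, 0.0218 within each panel, 0.27 with quantile normalization and 0.0266 with housekeeping centring, and Glul was 0.0167 with median centring and 0.0311 with quantile normalization. With median centring, r turned to -0.0058 for Gfap and Hspb1, -0.0033 for Gfap and Gbp2, -0.143 for Hspb1 and Glul, -0.0257 for Hspb1 and Sox9, and 0.0347 for Gbp2 and Glul.

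The labels' index number, used as a replicate block, gave 88 called genes for M28L.5xFAD in place of 130, and Serpina3n missed the threshold there (-0.64, adjusted p = 0.0718). No label says that the index pairs mice, and same-numbered mice of a sex did not deviate together: 1 of 22 pairs had a correlation over 0.1 (range -0.485 to 0.289).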
